A study of Mus musculus with 2 samples.

Results

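N6-methyladenosine (m6A) is a methyl group carried by adenosines within mRNA, and its peaks were examined where they lay deep inside long protein-coding genes. A peak was called deep when it was on an autosome, its summit lay in the RefSeq span of exactly 1 gene, that gene was protein-coding with a span over 100 kb, and the summit was at least 40 kb from both ends of the span. Of 26584 peaks in the list, 1860 were deep (6.997%, 95% interval 6.70 to 7.31), or 7.21% of the 25797 autosomal peaks. They lay in 811 genes. The rule used position alone, so the enrichment of these peaks was free to take any value that the peak caller accepts. The peaks came from methylated RNA immunoprecipitation sequencing, which sequences the RNA fragments that an antibody against m6A pulls down (immunoprecipitation, IP) and, separately, a library without that selection (input). There was 1 sample of each kind, both of polyA RNA from the uterus of wild-type females aged 6 to 8 weeks, on gestational day 4 counted with the vaginal plug as day 1. The whole organ was used and its cell type is labelled as mixed. There was no replicate, no other genotype and no treatment, so no p-value across samples exists and every difference describes 1 peak list.

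In mRNA, m6A is written mostly during transcription by the METTL3 and METTL14 complex, at sites that share a short consensus around GGAC. The mark is known to gather near stop codons and inside long internal exons, and to be sparse where exons are short and splice junctions close. Most of the span of a long gene is intron, and exon positions were not analysed here, so a deep peak may lie in an internal exon, an intron, or a transcript that starts inside the gene. On gestational day 4 the mouse uterus is about to receive the embryo, its epithelium has stopped dividing and its stroma is proliferating under progesterone and oestrogen.

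A few deep peaks overlapped windows around transcript starts that RefSeq (GRCm38.p6) annotates far inside the gene. The sequences under the strongest of these peaks are shown because they place a deep peak next to an annotated feature. Strand and starts were given for 632 of the 811 genes, which held 1454 deep peaks. Of these, 29 (1.99%) overlapped a start window of 250 bases before to 50 after an annotated start, and 14 did so by at least 100 bases. The 7 shown had the highest fold enrichment among peaks with at least 100 bases of the window and a summit within 500 bp of the start. Each sequence is the stretch of the window inside the peak, written 5′ to 3′ on the gene's strand, ending 30 bases into the transcript, with GGAC in capitals. In GRCm38.p6 they lie at chr11:81152874-81153153 on the minus strand (Asic2, an acid-sensing ion channel), chr4:104913325-104913590 plus (Fyb2, an adaptor protein), chr19:38523947-38524226 plus (Plce1, phospholipase C epsilon), chr8:90932142-90932278 plus (Chd9, a chromatin helicase), chr19:31664341-31664562 minus (Prkg1, the cGMP-dependent kinase), chr10:4710064-4710187 plus (Esr1, oestrogen receptor alpha) and chr11:30219743-30219938 minus (Sptbn1, beta-spectrin).
Asic2: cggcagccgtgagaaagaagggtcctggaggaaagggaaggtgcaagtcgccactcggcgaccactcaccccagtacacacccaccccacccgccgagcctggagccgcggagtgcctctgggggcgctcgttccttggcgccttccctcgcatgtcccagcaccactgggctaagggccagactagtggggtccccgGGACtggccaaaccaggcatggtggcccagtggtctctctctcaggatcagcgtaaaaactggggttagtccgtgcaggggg
Fyb2: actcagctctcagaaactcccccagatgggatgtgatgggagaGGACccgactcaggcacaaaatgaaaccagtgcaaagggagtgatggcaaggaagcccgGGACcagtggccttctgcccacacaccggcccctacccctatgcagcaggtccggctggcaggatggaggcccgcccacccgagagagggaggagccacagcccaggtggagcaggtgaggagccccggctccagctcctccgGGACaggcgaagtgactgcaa
Plce1: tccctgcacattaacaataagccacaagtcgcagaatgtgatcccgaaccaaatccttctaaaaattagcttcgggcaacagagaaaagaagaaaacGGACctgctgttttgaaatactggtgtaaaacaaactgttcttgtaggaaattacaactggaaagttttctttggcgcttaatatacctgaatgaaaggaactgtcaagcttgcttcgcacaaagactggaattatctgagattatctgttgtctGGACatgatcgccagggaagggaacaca
Chd9: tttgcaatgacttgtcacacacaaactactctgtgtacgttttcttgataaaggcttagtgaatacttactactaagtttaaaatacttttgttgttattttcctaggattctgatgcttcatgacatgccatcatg
Prkg1: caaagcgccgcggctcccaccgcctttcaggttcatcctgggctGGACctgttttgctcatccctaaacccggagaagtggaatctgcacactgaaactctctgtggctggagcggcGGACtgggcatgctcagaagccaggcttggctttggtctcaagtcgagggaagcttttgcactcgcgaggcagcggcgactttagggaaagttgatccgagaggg
Esr1: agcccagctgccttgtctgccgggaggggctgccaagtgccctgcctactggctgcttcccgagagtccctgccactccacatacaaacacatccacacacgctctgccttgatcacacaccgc
Sptbn1: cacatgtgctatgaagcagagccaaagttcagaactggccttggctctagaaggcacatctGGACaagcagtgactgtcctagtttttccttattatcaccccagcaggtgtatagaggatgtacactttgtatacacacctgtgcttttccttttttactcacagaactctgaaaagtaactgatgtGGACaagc

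The stretches in Asic2, Fyb2, Plce1, Prkg1 and Sptbn1 held GGAC on the gene's strand, 5 of 7 (71.4%), with 3 copies in Fyb2 and 1 in Asic2. A copy lay in the last 30 bases, past the annotated start, in Fyb2, Plce1 and Sptbn1, while those of Asic2 and Prkg1 were upstream of it. On either strand the share of stretches with GGAC was 85.7%. Over all 32851 RefSeq start windows of 300 bases, 65.6% held GGAC on the gene's strand and 87.7% on either strand. These windows were also cut to the shown lengths of 124 to 280 bases, ending 50 bases past the start rather than 30. In those stretches the share on the gene's strand was 37.5% to 63.3%. A match describes the letters and is not a mapped site. The fold enrichments of the peaks were 29.5 in Asic2, 17.6 in Fyb2, 11.9 in Plce1, 10.003 in Chd9, 8.75 in Prkg1, 7.26 in Esr1 and 7.21 in Sptbn1. The summit lay downstream of the annotated start by 6 bp in Sptbn1, 80 bp in Esr1, 110 bp in Plce1, 205 bp in Prkg1 and 250 bp in Chd9. It lay upstream, outside the transcript annotated from that start, by 68 bp in Fyb2 and 470 bp in Asic2. The Asic2 summit was also outside the printed stretch.

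Each peak carried the authors' fold enrichment, which is the IP pileup at the summit plus 1 over the background plus 1, and a significance given as −log10 q. The pileup, the number of IP fragments at the summit, and the background expected there were solved from the deposited values. Over all autosomal peaks the median pileup was 18 fragments and the median background 1.46 on the scale of the IP library. Intervals of a fold enrichment are 95% exact Poisson intervals of the pileup over a background treated as fixed, and intervals of shares are Wilson intervals; both cover counting error only. Every peak is named after a run called D8NegIP-Posinput, at odds with the labelled day. Whether the peaks belong to the labelled day, and which library set the background, is unsettled. Markers of the labelled tissue had peaks, 9 of 10 for endometrial stroma, 5 of 6 for smooth muscle, 6 of 7 for epithelium and 5 of 5 for endothelium. In the other marker lists, 1 of 6 for ovary and oviduct (Ovgp1), 1 of 6 for neurons (Map2) and 1 of 5 for leukocytes (Lyz2) had one. The share of all genes with a peak is not given here, so these small counts have no baseline.

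Deep sequence was the thinnest in peaks. The 2313 long autosomal genes held 5254 peaks in single-gene sequence, of which 35.4% (34.1 to 36.7) were deep, while the interior made up 69.0% of that sequence. Within 1 kb of either span end there were 113.6 peaks per Mb of single-gene sequence. Density was 39.0 per Mb at 1 to 10 kb from the nearer end, 11.3 at 10 to 40 kb, and 4.92 over the 378.2 Mb that lay at least 40 kb inside. Deep summits were a median of 73.4 kb from the nearer end (quartiles 52.1 and 121.5), and the farthest was 759.1 kb in, in Fhit. A deep peak was nonetheless common among long genes. Of the 2262 long genes with any single-gene interior, 811 had at least 1 (35.9%, 33.9 to 37.9), and 1531 had a peak anywhere in single-gene sequence.

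**Figure D1:**
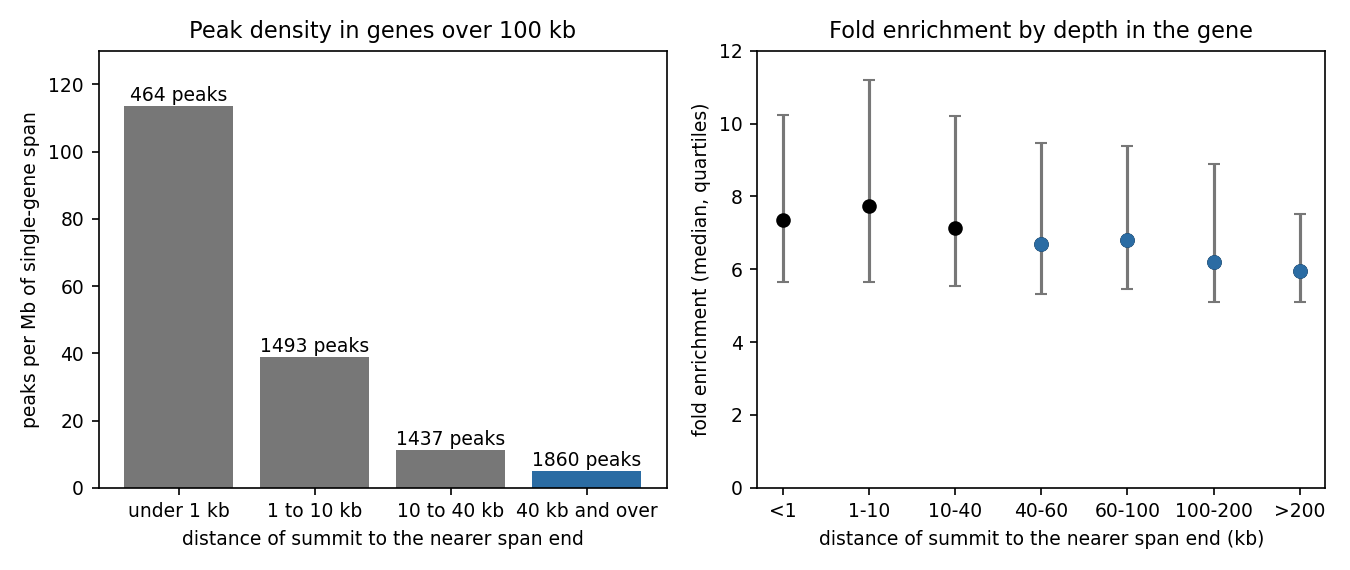
Peaks of long autosomal protein-coding genes by distance of the summit from the nearer end of the gene span, as peaks per Mb of single-gene sequence (bars, left) and as fold enrichment (right, points for medians and bars for quartiles, with deep peaks in blue). Density falls from 113.6 per Mb within 1 kb of an end to 4.92 per Mb in the interior of 1860 peaks, with genes of all spans pooled.

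The share of genes with a deep peak rose with span, from 24.5% (21.8 to 27.4) of 899 genes of 100 to 150 kb to 63.6% (50.4 to 75.1) of 55 genes over 1000 kb. The density within the interior went the other way, from 10.4 per Mb in the shortest of these classes through 5.75 at 200 to 300 kb to 2.02 over 1000 kb. The shortest class held 35.1 Mb of interior and the 55 longest genes 66.0 Mb. The densities by zone above pool all spans, so they do not separate depth from span. The median fold enrichment was 7.24 in the class of 100 to 150 kb and 6.22 in that over 1000 kb, and the median background 1.54 and 0.961. Genes with a deep peak had a median span of 214.7 kb, against 155.0 kb for eligible genes without one. By chromosome the deep share of peaks ran from 4.25% on chromosome 11 to 9.58% on chromosome 6. Per Mb of interior that pair came in the other order, with 5.08 on chromosome 11 and 4.72 on chromosome 6, and the range was 3.45 to 6.03.

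Deep peaks were lower, shallower and narrower than the other peaks of long genes. Fold enrichment had a median of 6.54 in deep peaks (quartiles 5.16 and 9.06, range 2.33 to 78.7), against 7.39 for the 3394 peaks of long genes nearer an end and 7.43 for the 15273 peaks of shorter protein-coding genes. Fold enrichment reached 10 in 381 deep peaks, 20.5% (18.7 to 22.4), below the 25.8% of all autosomal peaks and the 29.2% of the nearer-end peaks. The median pileup was 15.5 fragments (quartiles 10 and 27), against 20 for nearer-end peaks, and fewer than 10 fragments stood under 23.6% of deep peaks, beside 20.6% of all autosomal peaks. A background under 1 lay under 755 deep peaks, 40.6% (38.4 to 42.8), beside 38.2% of all autosomal peaks and 32.6% of nearer-end peaks. Deep peaks had a median width of 261.5 bp against 342 bp, and 117 of them (6.29%) reached 1 kb, beside 9.56% of all autosomal peaks. The median −log10 q was 9.07, against 12.3 for nearer-end peaks.

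At like backgrounds below 4, deep peaks also reached 10-fold less often than nearer-end peaks. Where the background was under 1, 15.2% (12.8 to 17.97) of deep peaks reached 10-fold, against 22.4% (20.04 to 24.95) of nearer-end peaks. At backgrounds of 1 to 2 the shares were 21.2% (17.8 to 25.2) and 30.1% (27.2 to 33.3), and at 2 to 4 they were 26.7% (22.7 to 31.2) and 35.0% (32.1 to 38.2). At 4 and over they were 25.1% (19.95 to 31.1) and 31.5% (27.6 to 35.8), with intervals that overlap. Shorter-gene peaks stood at 23.6%, 30.5%, 32.0% and 23.3% in the same order, so in the last class the deep share was the higher of the pair, with medians of 6.88 and 6.71. These ratios depend on the pseudocount: with 0.1 in place of 1, the median was 11.6 for deep and 12.4 for nearer-end peaks. Within the deep set, enrichment was lower beyond 100 kb. The median was 6.70 for the 665 peaks at 40 to 60 kb, 6.82 for 580 at 60 to 100 kb, 6.21 for 428 at 100 to 200 kb and 5.96 for the 187 beyond 200 kb. Of those 187, 9.63% reached 10-fold, and their median background was 0.961 against 1.54 at 40 to 60 kb.

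**Figure D2:**
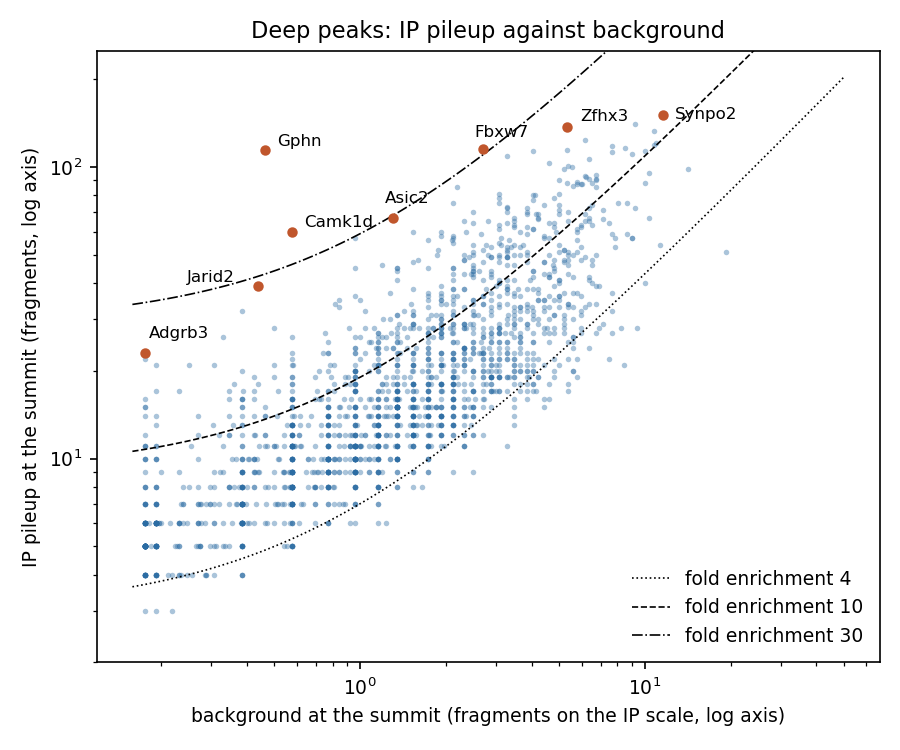
IP pileup at the summit (fragments) against the background (fragments on the IP scale), both on log axes, for the 1860 deep peaks, 1 point each, with lines of equal fold enrichment at 4, 10 and 30 and the highest peak of named genes in orange. The medians are 15.5 fragments and 1.35, and Gphn stands apart with 114 fragments over 0.461.

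Genes with both kinds of peak allow the comparison within a gene. There were 601 such genes, and the highest deep peak exceeded the highest nearer-end peak in 229 of them (38.1%, 34.3 to 42.0). The median log2 ratio of deep to nearer-end was -0.29 (quartiles -0.89 and 0.32). A gene with more peaks of one kind has more chances of a high one there. In the 94 genes with 1 peak of each kind, the deep peak was the higher in 48, and the median log2 ratio was 0.0052. In genes matched in this way, deep and nearer-end peaks were thus about equally often the higher. The most unequal gene in the other direction was Peak1, which encodes a cytoskeleton-associated pseudokinase, with a nearer-end peak of 102.5 and 1 deep peak of 19 fragments over 2.11. In single-gene sequence, the remaining 210 genes (25.9%) had deep peaks only. Their 387 peaks had a median fold enrichment of 5.96, a median pileup of 10 and a median background of 0.577, and 68.7% (64.0 to 73.1) of them had a background under 1.

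**Figure D3:**
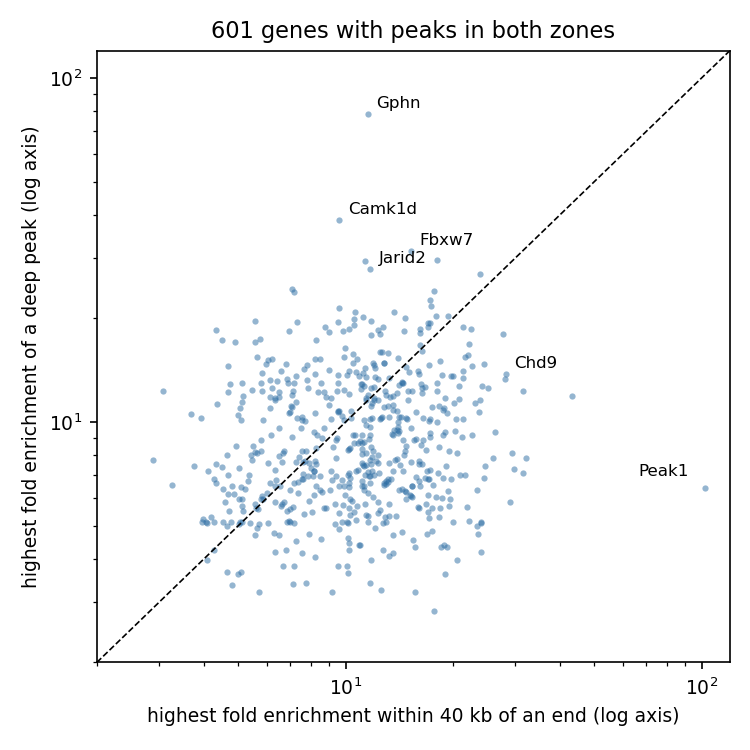
Highest deep fold enrichment against the highest nearer-end fold enrichment for the 601 genes with both, on log axes with the line of equal values. Genes above the line, among them Gphn and Camk1d, number 229, and Peak1 lies farthest to the right.

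Deep peaks leaned towards the 3′ side of the gene. Of the 1454 with a known strand, 633 (43.5%, 41.0 to 46.1) lay on the 5′ side of the span's midpoint, a density of 4.33 per Mb of interior, and 821 on the 3′ side, 5.67 per Mb. The interval treats peaks as independent, although many lie in the same gene, and no count by gene is given here. In 5 equal parts of the span from the 5′ end, the density was 3.24, 4.51, 5.29, 6.08 and 4.53 per Mb. The medians of fold enrichment on the 5′ and 3′ sides were 6.54 and 6.70. Some internal starts had a deep peak on their window. Of 498 annotated starts at least 40 kb inside, in 358 genes, 28 (5.62%, 3.92 to 8.01) had a deep peak on their window, and 156 of 2040 starts nearer the span ends had a peak (7.65%). No share is given for other interior windows of that size, so whether internal starts had peaks more or less often than such windows is not known. The median distance from a deep summit to the nearest annotated start of its gene was 89.2 kb. The 29 deep peaks on a start window had a median fold enrichment of 7.86 and a median width of 416 bp, against 6.63 and 261 bp for the 1425 off one.

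Most deep peaks stood alone, but counts of gaps and runs are not given for other peaks. Whether standing alone is particular to deep peaks is therefore not known. Counting single-gene sequence alone, the median gap to the nearest other peak of the gene was 10422 bp. On that count 1006 deep peaks (54.1%) had no other peak within 10 kb, and 125 were the only peak of their gene. Joining neighbours within 2 kb gave 1605 runs, of which 1408 were single peaks, 150 were pairs and 47 held 3 or more. Fold enrichment was much the same in the 1408 single peaks (median 6.63) and the 452 in runs (6.48). The longest run was 6 peaks over 5273 bp in Cmya5, the gene of a large striated muscle protein, with fold enrichments of 6.04 to 12.2 and pileups of 12 to 20. Runs of 4 lay in Brinp3 (over 4277 bp, 8.33 to 23.5), Fhit (over 3357 bp, 4.51 to 10.7), Dst (5.72 to 8.20), Tacc2 (5.20 to 20.3), Map4 (4.07 to 9.70), Lyst (5.46 to 12.9), Pigk (6.10 to 13.0) and Zfp423 (3.84 to 12.1). Neighbouring peaks of a run share a transcript and are not independent sites.

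The strongest deep peaks belonged to genes of varied function. Gphn encodes gephyrin, the scaffold of inhibitory synapses that also makes the molybdenum cofactor. Its deep peak at chr12:78350788-78351123 (mm10), 133.7 kb from the nearer span end, had 114 fragments over a background of 0.461, a fold enrichment of 78.7 (65.0 to 94.4) and the highest −log10 q of the deep set, 220.6. The other 5 deep peaks of Gphn had fold enrichments of 4.23 to 6.96, and its 1 nearer-end peak 11.6. Camk1d, a calcium and calmodulin dependent kinase, followed with 38.7 (29.7 to 49.6) at chr2:5379043-5379484, from 60 fragments over 0.577, and its 4 nearer-end peaks reached 9.61. In Fbxw7, the substrate receptor of a ubiquitin ligase for cyclin E, Myc and Notch, 115 fragments over a background of 2.69 gave 31.4 (26.0 to 37.7) at chr3:84903416-84904075. The highest of 3 nearer-end peaks of Fbxw7 was 15.3. In these 3 genes the deep peak was the highest of the gene.

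Sash1, a signalling scaffold, had 29.6 (22.5 to 38.2) at 41.9 kb from the nearer end, from 57 fragments over 0.961. The Asic2 peak was at 29.5 (22.9 to 37.3), from 67 fragments over 1.31, covered 2254 bp at 273.2 kb inside, and holds the internal start shown above. Jarid2, a cofactor of Polycomb repressive complex 2, had 27.8 (19.98 to 37.8) from 39 fragments over 0.438. Setbp1, which encodes a SET-binding nuclear protein, had 26.9 (21.6 to 33.2), over a peak 3632 bp wide. Ptprg, a receptor tyrosine phosphatase, had 25.8 (21.2 to 31.0) from 109 fragments over 3.27. It had no nearer-end peak in single-gene sequence, and its other deep peak was at 6.12. Pde4dip, a centrosome and Golgi scaffold, reached 24.4 and Bicd1, a dynein adaptor, 23.8. Others of the highest 20 were Brinp3 (23.5), Pakap (22.6), Zfhx3 (21.8), E130308A19Rik (21.4), Zfp462 (20.9), Adgrb3 (20.4), Cgnl1 (20.3) and Tacc2 (20.3). In all 22 deep peaks reached 20-fold (1.18%, 0.782 to 1.78), against 2.68% (2.19 to 3.28) of nearer-end peaks, and 14 of the 22 had no other peak of the gene within 10 kb.

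The background differed widely among these genes, and it sets how firm each ratio is. Adgrb3, an adhesion G protein-coupled receptor known from neurons, had 1 peak in single-gene sequence. It had 23 fragments over a background of 0.175, the lowest level in the set. That level lay under 85 deep peaks, and there the 1 added to the background makes up most of the divisor. Zfhx3, a homeodomain and zinc finger transcription factor, had 137 fragments over 5.34, and a −log10 q of 132.9. Synpo2, an actin-binding protein of muscle Z-discs, had the highest pileup, 151 fragments over 11.5, with a fold enrichment of 12.1 (10.3 to 14.2). Mbnl2, a splicing regulator, had 124 fragments over 6.15 and 17.5 (14.6 to 20.8), and the chromatin helicase gene Chd9 140 over 9.23 and 13.8 (11.6 to 16.2). Ranked by −log10 q these 4 genes were among the highest 10, with Gphn, Fbxw7, Ptprg, Pakap, Tshz2 and Setbp1.

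A small number of genes held many deep peaks. Of the 811 genes, 396 had 1, 193 had 2, 78 had 3, 39 had 4 and 105 had 5 or more. Those 105 held 688 of the 1860 peaks (37.0%), with a median fold enrichment of 6.50 and a median background of 1.73. The 396 genes with 1 deep peak had medians of 6.23 and 0.861. Dst, the giant cytoskeletal linker dystonin, had the most, 24, between 43.7% and 89.0% of the way along the gene. Their fold enrichments had a median of 7.10 and reached 13.5 (9.77 to 18.2). Magi2, a scaffold of cell junctions, had 14, of which 12 lay between 6.7% and 17.7% of the way along a span of 1485 kb, and the highest was 10.02 (5.98 to 15.9). Pileups in Magi2 were 5 to 17 fragments, shallower than in Dst, where they were 5 to 94.

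Esr1, Rbms3 and Rora had 13 each. Esr1 encodes the receptor through which oestrogen acts on the uterus, and 10 of its 13 lay between 67.3% and 82.8% of the way along, with a highest fold enrichment of 13.2 (10.02 to 17.1) and a nearer-end highest of 6.42. Rbms3, an RNA-binding protein, had fold enrichments of 4.74 to 10.6 spread from 6.1% to 87.5% of the gene. Rora, an orphan nuclear receptor, had 2.95 to 8.97, from 7.5% to 94.5%. Tshz2, a teashirt zinc finger transcription factor, had 12, the highest at 18.1 (14.98 to 21.7) from 114 fragments over 5.34. Wwox, a WW domain oxidoreductase at a common fragile site, had 10, the highest at 19.2 (13.5 to 26.7) and the lowest at 3.71. It had no nearer-end peak in single-gene sequence. Sipa1l3, a Rap GTPase regulator, had 10, up to 18.2. Genes with 9 were Plce1 (up to 17.98), Syne2 (15.8), App (15.2), Macf1 (13.0), Zeb1 and Naaladl2 (9.43), and Pde4dip had 8. App, which encodes the amyloid precursor protein, had its 9 over backgrounds of 2.61 to 7.88, and the 9 of Naaladl2 lay over 0.175 to 2.50.

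**Figure D4:**
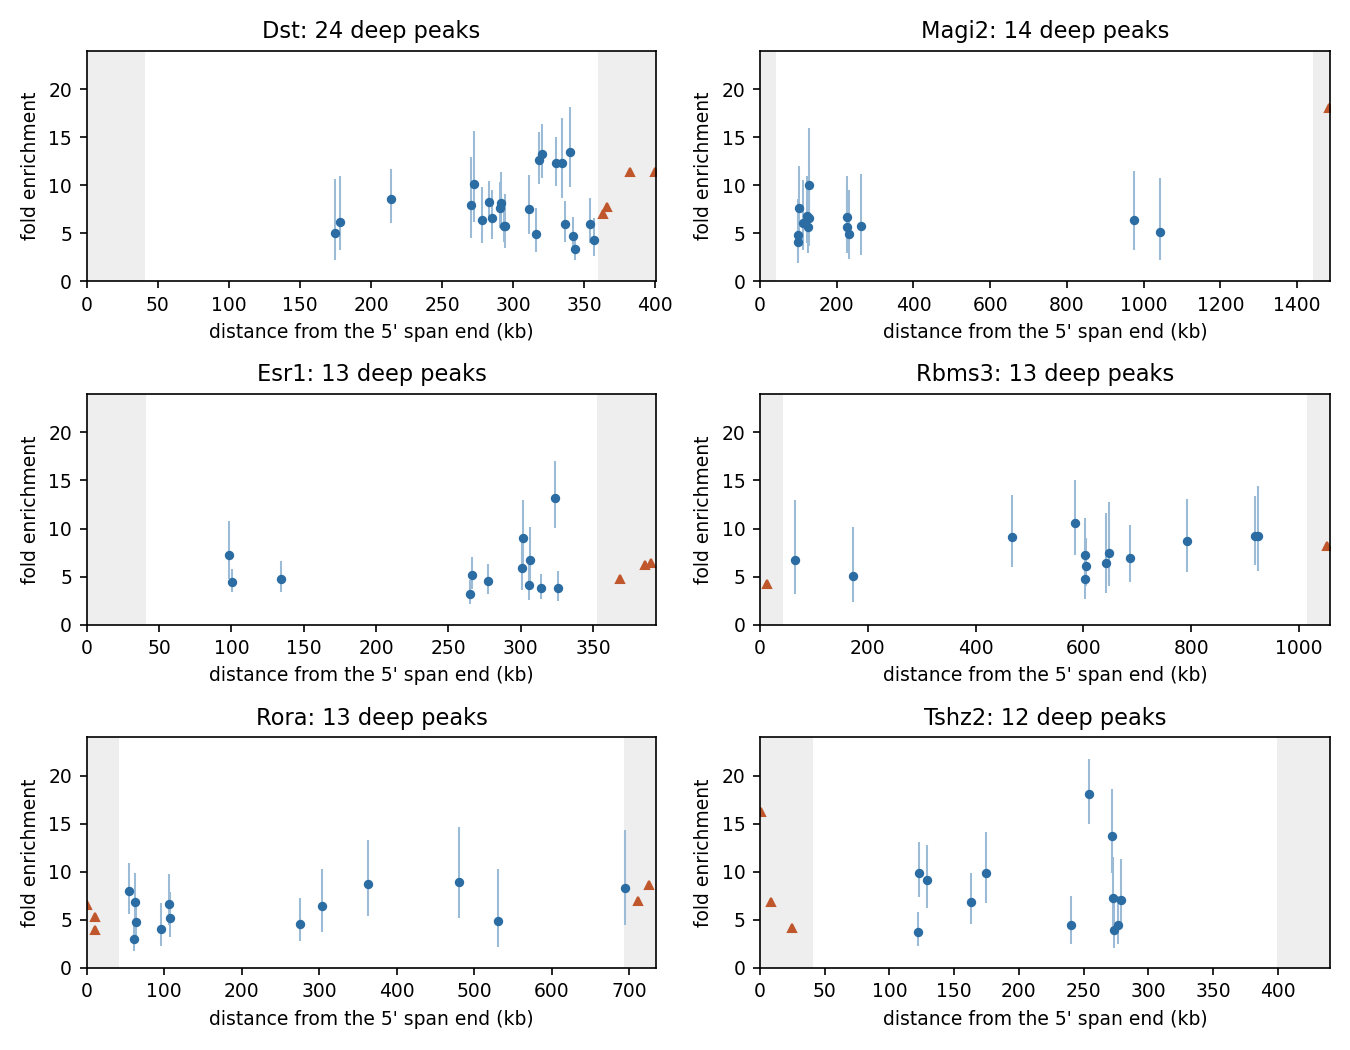
Fold enrichment of each deep peak (blue circles, with 95% intervals) against distance from the 5′ end of the gene span (kb) in 6 genes with 12 or more deep peaks; orange triangles are peaks within 40 kb of an end, which lie in or beside the grey bands. The 24 deep peaks of Dst lie from 43.7% of the span on, and 12 of the 14 of Magi2 within 6.7% to 17.7%.

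Wide deep peaks were mostly well enriched, but most enriched deep peaks were not wide. The 117 of at least 1 kb lay in 101 genes, with a median fold enrichment of 12.4, a median pileup of 59 and a median background of 3.46, and 78.6% (70.4 to 85.1) reached 10-fold. Those 92 were a minority of the 381 deep peaks at 10-fold, and the highest peaks of Gphn and Camk1d covered 336 bp and 442 bp. Width and enrichment come from the same signal and are not independent measures. The 10-fold share of wide peaks in the whole list is not given here, so this is not shown to be particular to deep peaks. The widest was in Prune2 (6535 bp, 12.5-fold), beside a second peak of the gene at 16.1. Crybg3 followed (5965 bp, 11.6), then Dst (5161 bp, 8.26), Tshz2 (4557 bp, 18.1), Rev3l (4158 bp, 12.3), Tcf20 (4054 bp, 12.9), Arhgap35 (4000 bp, 11.1), Macf1 (3834 bp, 13.0), Setbp1 (3632 bp, 26.9) and Chd9 (3555 bp, 13.8). Rev3l is the catalytic subunit of DNA polymerase zeta, Tcf20 a nuclear coregulator and Arhgap35 a GTPase-activating protein. The Rev3l peak had 116 fragments over 8.54, and all 6 peaks of Rev3l in single-gene sequence were deep.

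Chromatin regulators had the highest share of genes with a deep peak among the gene lists described here. Of 40 eligible genes for chromatin regulators and coregulators, 32 had one (80%, 65.2 to 89.5), against 35.9% of all eligible genes. The highest deep peak of a gene had a median fold enrichment of 12.4 in the list, against 7.67 over all 811, and it reached 10 in 23 of the 32, against 287 of 811 (35.4%). The median span was 168 kb, no longer than the 173 kb of all eligible genes, and 38 of the 40 had a peak somewhere. Jarid2 and Setbp1 were the highest named here, with the histone methyltransferase Nsd3 at 18.6 (14.7 to 23.3) and the steroid receptor coactivator Ncoa2 at 18.003 (12.7 to 24.8). Cytoskeletal linkers and myosins came next, with 30 of 43 (69.8%, 54.9 to 81.4). Their 128 deep peaks lay over a median background of 2.69, the highest of the lists, and the median of the highest fold enrichment was 8.17. The microtubule-binding Nav1 reached 18.9 and Nav2 17.1, the nuclear envelope linker Syne2 15.8, the focal adhesion protein Tns3 15.1 and the formin Fmn1 13.8. The intervals of both lists overlap. The median background was 2.19 for deep peaks of chromatin regulators and 1.35 for all deep peaks. Across the lists, background did not follow the order of the shares. It was 2.17 for DNA-binding transcription factors, with a share of 48.1%, and 1.35 for cell adhesion and guidance genes, with 60.3%. The part of background in the counts was not tested. With the limit at 80 kb, 8 chromatin genes and 19 cytoskeletal genes had a deep peak, of 376 genes in all. Shorter genes cannot meet that limit, and the genes that can were not counted, so these are not shares of 40 and 43. The median span was 267 kb for the cytoskeletal list and 168 kb for the chromatin list. In whole tissue, fewer cells of a type and less RNA per cell cannot be told apart.

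Genes of cell adhesion and guidance had a deep peak in 35 of 58 (60.3%, 47.5 to 71.9), led by Ptprg, Adgrb3, the junction protein Cgnl1, the secreted guidance cue Sema3c (17.9) and the guidance receptor Robo1 (15.2). DNA-binding transcription factors had one in 37 of 77 (48.1%, 37.3 to 59.0), with 132 peaks in all. Zfhx3 led, then the forkhead factor Foxn3 (20.1), the Notch coactivator Maml3 (19.4), Ets1 (18.4) and Tshz2. Maml3 does not itself bind DNA and was counted with the list. Phosphodiesterases, cyclases and anchoring proteins had 18 of 37 (48.6%, 33.4 to 64.1), led by the phospholipase C related Plcl2 (18.4) and Plce1 (17.98). Phospholipase C genes and further signalling genes were counted with this list, so its name covers only a part of it. The cAMP phosphodiesterase Pde4d reached 12.6. RNA-binding proteins had 15 of 32 (46.9%, 30.9 to 63.6), among them Tnrc6c (20.2), a partner of Argonaute in miRNA silencing, and the translation factor Eif4g3 (19.2). Membrane traffic, scaffold and lipid genes had 29 of 62 (46.8%, 34.9 to 59.0). Ubiquitin ligases and proteases had 19 of 42 (45.2%, 31.2 to 60.1), with Kctd1 at 18.9 and the ligase Cblb at 16.0. Kctd1 and Wwox are not themselves ligases or proteases and were counted with the list. The intervals of the phosphodiesterase, RNA-binding, membrane traffic and ubiquitin lists include the 35.9% of all eligible genes. No list share was adjusted for span.

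The kinase and extracellular matrix groups lay below the share of all long genes, with intervals that also include it. Protein kinases and receptor kinases had 20 of 61 (32.8%), and after Camk1d the highest were the TGF-beta coreceptor Tgfbr3 at 13.9 and the Hippo kinase Stk3 at 12.7. Tgfbr3 has no kinase domain and was counted with the list. Extracellular matrix genes, growth factors and their proteases had 19 of 68 (27.9%, 18.7 to 39.6), although their median span of 269 kb was longer than that of the chromatin regulators. Thsd7a (18.9), Adamtsl1 (16.2) and the basement membrane collagen Col18a1 (12.7) were the highest of these.

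**Figure D5:**
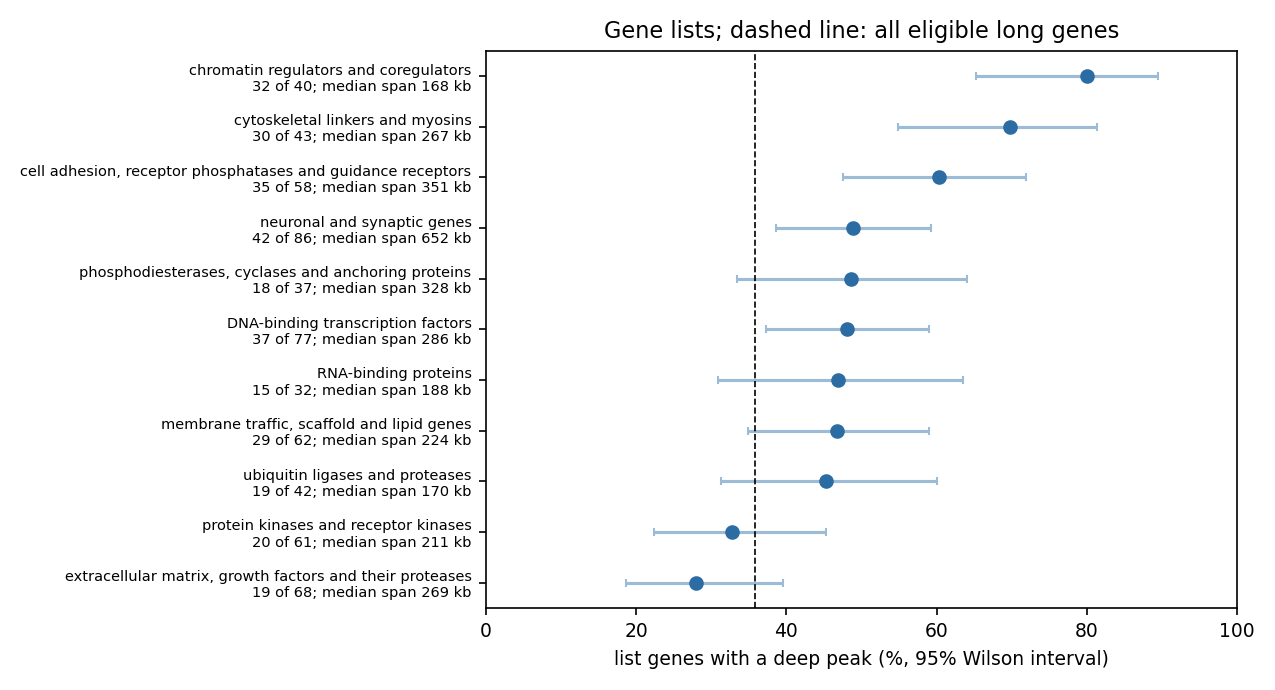
Share of eligible long genes with a deep peak in 11 gene lists, as points with 95% Wilson intervals, and the dashed line marking all eligible genes. Chromatin regulators stand at 80% and extracellular matrix genes at 27.9%, on either side of the 35.9% of all eligible genes.

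Neuronal and synaptic genes had a deep peak in 42 of 86 (48.8%, 38.6 to 59.2), and 49 of 86 had a peak anywhere. Over all eligible genes, 35.9% had a deep peak, and 1531 of 2262 had a peak anywhere in single-gene sequence. The neuronal genes were the longest list, with a median span of 652 kb. Of all 157 eligible genes of 500 to 1000 kb, 55.4% (47.6 to 63.0) had a deep peak, so the list did not stand above genes of like length. The 87 deep peaks of the list were shallow. The median background was 0.807 and the median pileup 11, 39.1% rested on fewer than 10 fragments, and the median of the highest fold enrichment was 6.39. Gphn and Asic2 stood above this level, as did the calcium channel Cacna1c (14.7), Csmd3 (14.6, from 17 fragments) and the adhesion protein Tenm3 (14.1). The list was drawn up as markers of another cell type, but whether its members are limited to neurons was not examined. Gphn, whose protein also makes the molybdenum cofactor, is in the membrane traffic list as well. Of the 6 defining neuronal markers, 1 (Map2) had a peak, and the part of neurons in the list's count was not tested.

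The longest interiors were sparsely marked. Ptprd, a receptor phosphatase of 2270.5 kb, had 6 deep peaks with fold enrichments of 4.19 to 5.91 from 4 to 14 fragments, and none nearer an end. Cntnap2, a neuronal adhesion protein, had 1 at 5.07 from 7 fragments, Lsamp, a neuronal surface protein, 1 at 5.29, and the presynaptic neurexin gene Nrxn3 2, up to 5.85. Fhit, which encodes a diadenosine hydrolase and spans a common fragile site, had 7, up to 10.7, 4 of them in the run described above. The longest interiors without a deep peak were those of Lrp1b, Macrod2, Dlg2, Dpp10 and Rbfox1. Macrod2 had 2 peaks nearer an end and the other 4 had none in single-gene sequence. That none was called there does not show that m6A was absent.

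The 40 kb limit cut through a continuous range. Just inside it were peaks in Rev3l (40056 bp, fold enrichment 6.17), Fnbp1 (6.59), Ppp2r3a (8.15), P3h2 (6.12) and Atp8b1 (4.63). Just outside were Adamtsl3 (39965 bp, 5.11), Sptbn1 (39934 bp, 14.5), Mdn1 (3.51), Rock1 (8.17) and Cep83 (5.86).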

How the data were processed

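PolyA RNA of mouse uterus was immunoprecipitated with an anti-m6A antibody from Synaptic Systems and sequenced from strand-specific libraries, per the labels' protocols. The submitters' processing notes name HISAT2 2.2.1 and MACS3 3.0.0a7, with mm10 as build. Options, pooling and the role of the input are not given in these sources. The peak list of the IP sample was the only file used.

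The deposited fold enrichment is a ratio, (pileup + 1) / (background + 1), the deposited p- and q-values are −log10, and the deposited score is 10 times −log10 q to within 1. The lowest −log10 q was 1.31. These are the authors' values per peak and were compared only within this list. Pileup and background at the summit were solved from fold enrichment and the Poisson p-value; pileups came out whole within 0.05 of a step for 99.97% of all peaks and for every deep peak. The solver recovered 100% of 2000 simulated peaks made with the same formula. The background's own counting error is left out of the intervals.

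Spans, strands and starts came from RefSeq tables of GRCm38.p6, the assembly of mm10. Exons, introns and genome sequence outside start windows were not used here, and peaks carry no strand, so antisense transcripts were not told apart. Density is peaks per Mb of sequence covered by 1 gene alone. The peaks of a long gene were counted only in such sequence, so any in stretches shared with another gene are left out. Coordinates count from 1.

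The deep peaks, gene lists and rules were chosen with earlier results of these data known. Named genes are the 20 with the highest deep fold enrichment (−log10 q 5 or above), the 15 with the most deep peaks, the 10 peaks of highest −log10 q, the 10 widest, the 5 on either side of the limit, the 5 longest interiors with and without a deep peak, and up to 5 per list; Gphn is in 2 lists. A few genes and 1 list so chosen are not reported here. Genes of the shown start windows and of runs of 4 or more, and those picked as examples, were named after their values were seen. The alternatives tried were a −log10 q limit of 5, a fold enrichment limit of 4, distance limits of 20 and 80 kb, spans over 200 kb, the whole peak in the interior, overlap with other gene types, merging within 2 kb and a pseudocount of 0.1. Software versions were scipy 1.17.1, pandas 2.3.3, numpy 2.4.6, matplotlib 3.10.9 and Python 3.11.15.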

Additional observations from a re-analysis of the deposited data

How the results depend on the processing

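Of the counts, shares and medians of deep peaks as a whole, 23 moved by at most 1.5 times (counts) or stayed within the main value's 95% interval (shares and medians) under an alternative, and 19 moved further. Changing a limit of distance, span or q changes which peaks are counted, and a smaller pseudocount raises every ratio. Where a median or a 10-fold share moved with a limit or with merging, the cause was not tested. At −log10 q of at least 5 the median fold enrichment was 7.22 and 24.98% of deep peaks reached 10-fold. With a limit of 20 kb there were 2718 deep peaks in 1041 genes, 10.5% of autosomal peaks. With 80 kb there were 848 deep peaks (3.29%) in 376 genes, with a median of 6.35 and 18.3% at 10-fold. For spans over 200 kb there were 1154 (4.47%) in 433 genes, with a median of 6.34 and 18.02%. With overlap of other gene types allowed, 7.85% of autosomal peaks were deep. Merging peaks within 2 kb gave 7.99%, a median of 6.82 and 22.7%. A pseudocount of 0.1 in place of 1 gave a median of 11.6 and 62.3%, and the nearer-end peaks then had a median of 12.4. No paired analysis was possible because there is 1 IP peak list, with no replicate and no second group. Of the deep peaks, 439 (23.6%) rested on fewer than 10 fragments, beside 20.6% of all autosomal peaks.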
